A study of Homo sapiens with 20 samples.

Results

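Interferon-stimulated genes are the genes that a cell switches on when interferon reaches its receptors, and 46 of them were followed here by name in every library, among 25411 RefSeq genes with counts. Each of the 46 symbols had a row in the count files, and all 46 passed the filter on low counts in every fit. The list holds sensors of viral RNA, transcription factors, antiviral effectors and the ISG15 system.

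As background, type I and type III interferons act through the kinases JAK1 and TYK2 on a complex with STAT2 and IRF9, which binds an element called the ISRE in the promoters of these genes. Interferon gamma acts through another element, the GAS. Airway epithelial cells both make and sense interferons during viral infection, and many of the genes keep a basal level without infection.

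The cells were BEAS-2B, a bronchial epithelial line immortalised with viral genes, grown with or without nickel chloride and measured by RNA sequencing in 20 libraries. Control_3D (n = 4) were control cells and Ni_3D (n = 2) were nickel-exposed cells of a 3-day exposure. Ni_3D+14D (n = 2) carried the label of 3 days of exposure and 14 further days. Unexposed and exposed cells of the 6-week arm made up Control_6W (n = 2) and Ni_6W (n = 2). The Ni_6W+2W libraries (n = 2) came from exposed cells that had been washed and kept without nickel for 2 weeks afterwards. Ni_clone (n = 6) held 1 library from each of 6 lines, each grown without nickel from a single colony of cells that had received 6 weeks of nickel at a concentration that the label writes as 100 mM, a unit that could not be checked here and may be a typing error. Concentrations for the other groups were given only as varied, and no interferon or virus was named in any label. The labels do not say whether replicates were separate cultures, so every p-value measures the spread between these libraries, which may be technical.

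Library totals ran from 8609243 reads (Control_3D replicate 4) to 88848786 reads (Ni_3D replicate 2). The simple-epithelial keratins KRT8 and KRT18 were read in all libraries at 187 to 831 and 135 to 386 CPM, the reads of a gene scaled to library size with TMM factors. The basal airway marker TP63 stayed at or under 0.213 CPM, and the epithelial markers EPCAM, CDH1 and KRT19 had medians of 2.36, 0.474 and 1.52 CPM. Of the fibroblast markers, COL1A1 and PDGFRB had medians of 2852 and 169 CPM, whereas COL3A1, PDGFRA, DCN and LUM had medians of 0.0885, 0.0488, 0 and 0.0732. The leukocyte marker PTPRC reached 0.307 CPM at most, while the macrophage markers CD14 and CD68 were read in every library, up to 34.2 and 82.4 CPM in Ni_6W replicate 1. ESR1, the oestrogen receptor, was read in Control_3D replicate 1 (3.51 CPM) and Ni_3D replicate 1 (10.7 CPM) and at 0 in the other libraries. Values without them stand beside each comparison that uses them. In bulk RNA, fewer cells with a transcript and less transcript per cell cannot be told apart.

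The sequences that STAT and IRF factors can bind set the stage for the values. The RefSeq promoter table (GRCh38.p14) held a window for 38 of the 46 genes, from 250 bases before to 50 bases after the start. OAS2, OASL, IFIT2, MX2, IRF7, USP18, TRIM22 and IFITM2 had none. The ISRE core was searched as GAAA, any 2 bases and GAAA, or on the other strand TTTC, any 2 bases and TTTC, and the GAS core as TTCNNNGAA, which is its own reverse complement. An ISRE core match stood in 25 of the 38 windows (65.8%), against 996 of 27305 promoters of that length (3.65%). GAS core matches stood in 11 of the 38 (28.9%), against 7.88% of all promoters, and some of the matches of one core overlap those of the other. A match is a description of letters and no evidence of binding.

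The 250 bases before the start are shown for 5 genes whose levels are described below, as examples of windows with and without a match, 5′ to 3′ on the strand of the gene, with ISRE core matches in capitals. IFIT1 (chr10:89392373-89392622, plus strand) and IFI27 (chr14:94110486-94110735, plus strand) each hold a pair of matches. ISG15 (chr1:1013247-1013496, plus strand) and BST2 (chr19:17405631-17405880, minus strand) hold overlapping matches. STAT2 (chr12:56360108-56360357, minus strand), which passed the test in a comparison below, holds none in the window.
IFIT1: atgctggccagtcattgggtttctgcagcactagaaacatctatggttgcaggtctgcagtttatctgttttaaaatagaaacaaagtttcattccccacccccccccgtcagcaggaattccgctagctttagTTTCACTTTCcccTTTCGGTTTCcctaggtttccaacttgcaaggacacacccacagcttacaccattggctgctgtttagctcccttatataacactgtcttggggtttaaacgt
IFI27: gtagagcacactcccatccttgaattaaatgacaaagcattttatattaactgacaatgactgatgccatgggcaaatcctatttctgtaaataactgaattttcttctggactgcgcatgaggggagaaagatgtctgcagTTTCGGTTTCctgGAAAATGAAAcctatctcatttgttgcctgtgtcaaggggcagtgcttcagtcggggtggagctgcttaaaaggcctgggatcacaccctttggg
ISG15: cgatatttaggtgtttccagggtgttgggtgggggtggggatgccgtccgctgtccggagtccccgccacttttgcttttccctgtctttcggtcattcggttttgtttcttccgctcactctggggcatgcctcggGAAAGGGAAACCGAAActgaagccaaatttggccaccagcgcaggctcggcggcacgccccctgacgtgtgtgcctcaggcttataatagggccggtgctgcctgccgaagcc
BST2: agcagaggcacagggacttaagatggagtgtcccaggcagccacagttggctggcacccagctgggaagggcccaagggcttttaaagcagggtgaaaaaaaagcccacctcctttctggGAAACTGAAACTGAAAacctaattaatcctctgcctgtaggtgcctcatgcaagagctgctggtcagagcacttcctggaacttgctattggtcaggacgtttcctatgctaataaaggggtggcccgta
STAT2: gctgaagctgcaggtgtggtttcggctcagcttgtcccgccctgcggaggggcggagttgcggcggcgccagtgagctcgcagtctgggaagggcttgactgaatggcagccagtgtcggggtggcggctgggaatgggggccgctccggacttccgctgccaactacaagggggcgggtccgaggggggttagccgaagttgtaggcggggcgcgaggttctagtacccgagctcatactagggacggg

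Single sites with 10 flanking bases on each side are shown as examples from other families, 1 per gene (match in capitals, same build). The search pattern fixes all but 2 letters of each match, and several of these genes hold a further match with other letters.
OAS3: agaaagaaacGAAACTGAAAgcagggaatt
IFIT3: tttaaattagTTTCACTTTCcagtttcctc
IFIT5: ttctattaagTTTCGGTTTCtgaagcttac
IFIH1: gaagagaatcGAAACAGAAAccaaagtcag
DDX60: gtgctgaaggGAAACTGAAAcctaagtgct
MX1: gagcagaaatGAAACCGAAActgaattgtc
ISG20: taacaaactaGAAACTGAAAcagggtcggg
SAMD9: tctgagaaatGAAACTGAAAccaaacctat
IFITM1: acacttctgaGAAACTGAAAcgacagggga
IFITM3: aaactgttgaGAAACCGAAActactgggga
The MX1 match lay after the start of the gene.

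Members differed widely in basal level. On the authors' RPKM scale, which divides by transcript length, IFITM3, a membrane protein that blocks virus entry, had the highest median over the 20 libraries (314.0, range 177 to 685). LGALS3BP, a secreted glycoprotein, followed at 285, then IFI6 at 142 and ISG15, the ubiquitin-like modifier, at 127. At the other end, RTP4 (0.791), RSAD2 (0.103), CMPK2 (0.0949) and IFI44L (0.0621) had medians under 1 RPKM. The highest CPM value among these 4 genes was 2.43, for CMPK2 in clone 2, so their fold changes rest on few reads.

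The clearest pattern in the data was that members went up and down together from library to library, within as well as between groups. For each gene the level in a library was set against its own median over the 20 libraries, as log2(CPM + 0.5), and the 46 differences were summarised by their median. This median was highest in Ni_6W replicate 2 (0.60), Control_3D replicate 3 (0.50), Ni_6W+2W replicate 2 (0.45) and clone 1 (0.41). It was lowest in Ni_3D replicate 2 (-0.88), clone 5 (-0.50), Ni_3D replicate 1 (-0.43), Ni_6W+2W replicate 1 (-0.35) and Control_3D replicate 1 (-0.31). Over the 14899 genes used for the scaling the same median lay between -0.01 and 0.01 in every library, where the scaling itself puts it. Quartiles over those genes were -0.33 and 0.34 in Ni_3D replicate 2, against -1.55 and -0.55 over the members. In Ni_6W replicate 2 the quartiles were -0.21 and 0.24 over those genes, against 0.24 and 0.81 over the members. High libraries thus occurred among control, exposed, washed and clone libraries, and so did low ones.

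**Figure D1:**
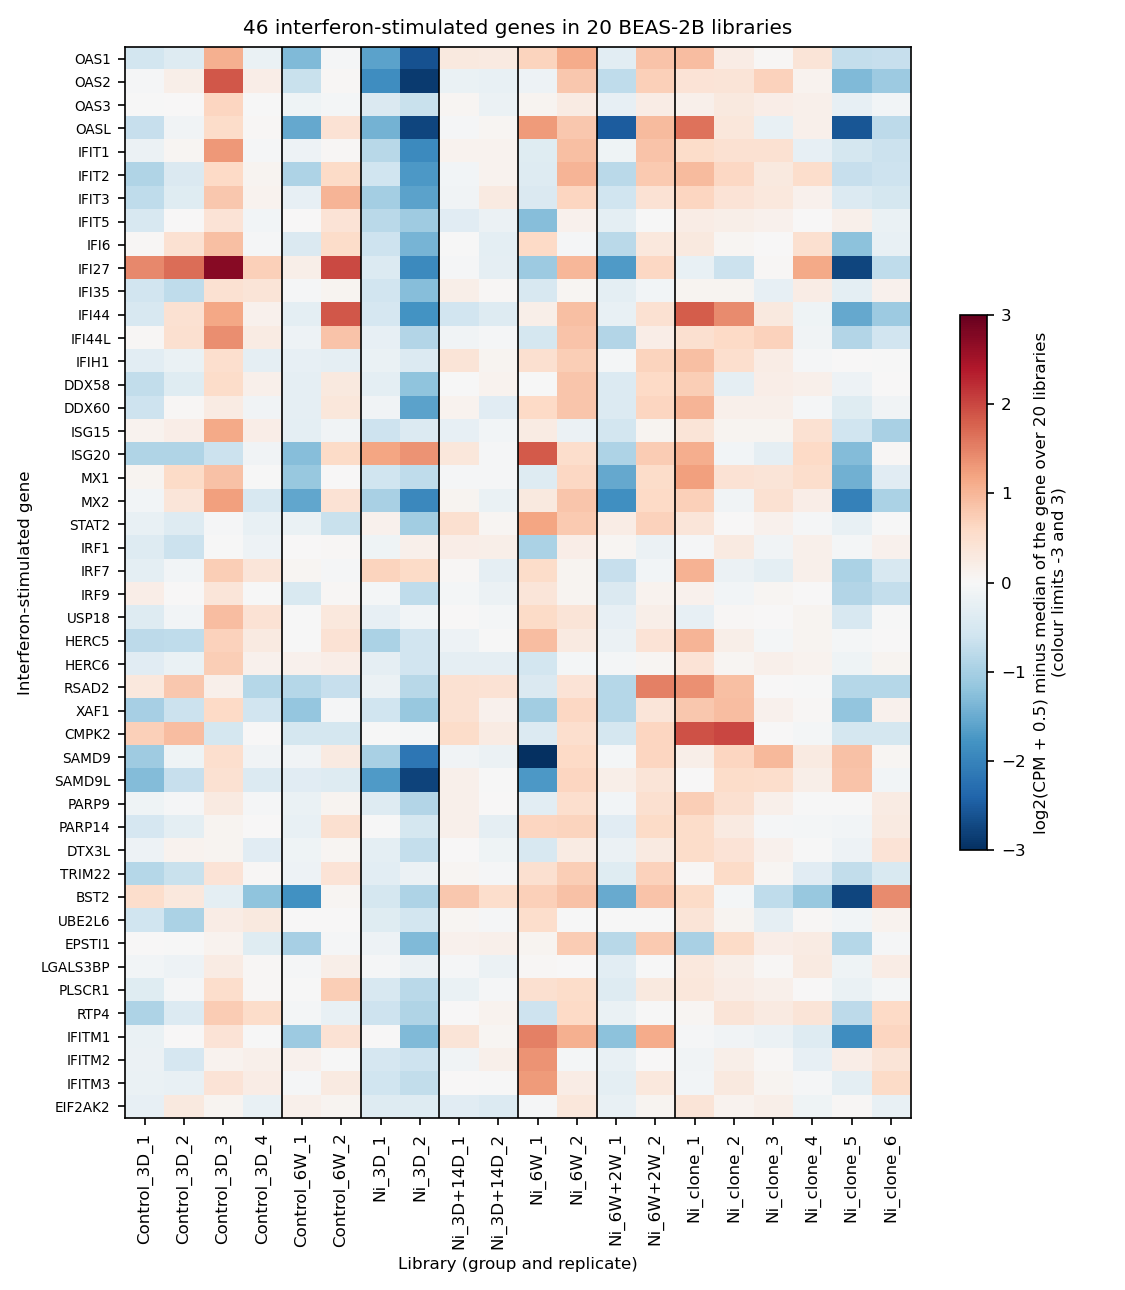
Level of each of the 46 genes (rows) in each of the 20 libraries (columns, grouped) as log2(CPM + 0.5) minus the median of the gene over the libraries, with colours limited at -3 and 3. Whole columns take 1 colour: Control_3D_3, Ni_6W_2, Ni_6W+2W_2 and Ni_clone_1 are mostly red, Ni_3D_1, Ni_3D_2, Ni_6W+2W_1 and Ni_clone_5 mostly blue.

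Of the 46 members, 14 had their highest level in Control_3D replicate 3, which was the highest library for 3.77% of all genes, and 10 had it in clone 1 (5.80% of all genes). In turn 24 members had their lowest level in Ni_3D replicate 2 (11.8% of all genes) and 9 in clone 5 (3.60%). Among the controls of the 3-day exposure, replicate 3 was the highest of 4 for 38 of 46 members, against 22.9% of all genes. For 13 members it stood at more than 2 times the mean of the other 3 controls (1.62% of all genes), and the median ratio over the members was 1.66.

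**Figure D2:**
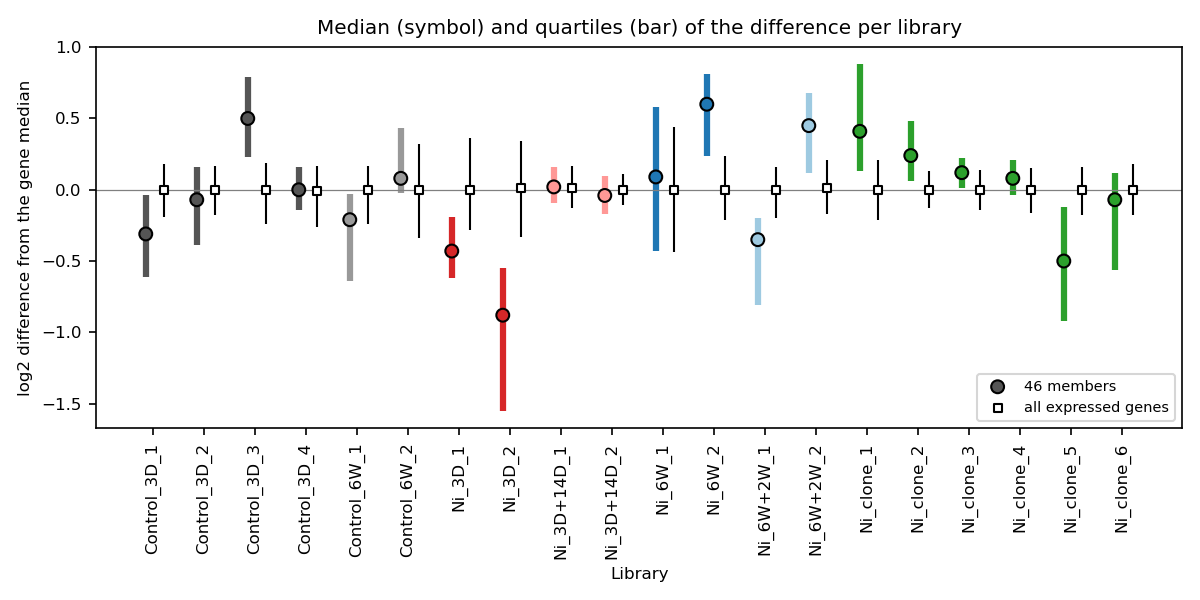
Median (circle) and quartiles (thick bar) over the 46 genes of the log2 difference from the gene's own median, for each library, beside the same for all 14899 expressed genes (square and thin bar). The squares stay at 0, where the scaling puts them, while the circles range from -0.88 in Ni_3D_2 to 0.60 in Ni_6W_2.

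Replicates of a group often lay on opposite sides. In Ni_6W+2W, replicate 2 was above replicate 1 for 44 of 46 members (50.9% of all genes). It was over 2-fold above for 20 (5.13% of all genes), with a median difference of 0.70 on the log2 scale. In Control_6W, replicate 2 was above replicate 1 for 38 members (51.5% of all genes) and over 2-fold above for 13 (5.33%). Clone 1 exceeded clone 5 for 42 members (48.5% of all genes) and by over 2-fold for 22 (6.88%). By contrast the Ni_3D+14D replicates differed by over 2-fold for no member (0.309% of all genes in that direction and 0.456% in the other). Across groups, Ni_6W replicate 2 and Ni_6W+2W replicate 2 differed by over 2-fold for 1 member, with a median difference of -0.07. Few genes of any kind differed so in this pair (0.537% of all genes in that direction and 0.336% in the other). Over all genes this pair had the lowest chi-square per degree of freedom of all 190 pairs (8.91), still more than counting error gives. That value grows with library depth, and Ni_6W replicate 2 held only 10581338 reads. The pair need not be the closest once depth is allowed for. Leaving out a single library moved several of the counts given below.

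**Figure D3:**
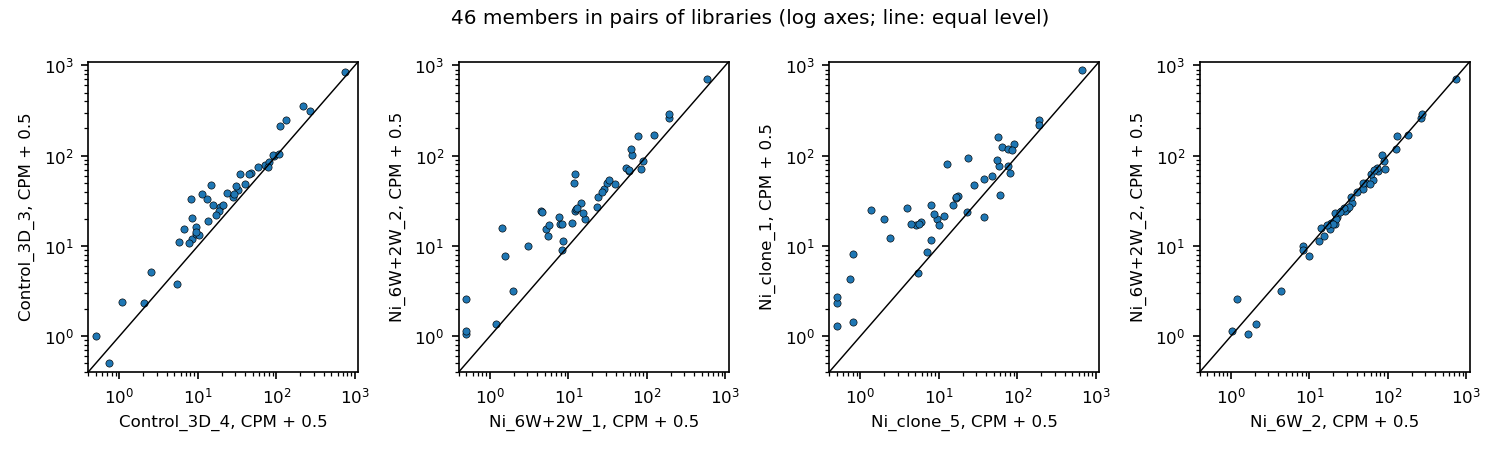
CPM + 0.5 of the 46 genes (points) in 4 pairs of libraries on log axes, with the line of equal level. Points lie above the line in the first 3 pairs (42, 44 and 42 of 46 genes higher on the vertical axis) and along it for Ni_6W_2 against Ni_6W+2W_2.

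After the 3-day exposure, 2 of 46 members passed the test against Control_3D, both lower in Ni_3D: the oligoadenylate synthetases OAS2 and OAS1, which make the messenger that activates RNase L on sensing double-stranded RNA. None rose. By the same test 1.51% of the 14927 genes tested fell, 2.83% rose and 4.33% were called in either direction. The values of 43 members were on the lower side (48.2% of all genes), and the median log2 fold change over the 46 was -0.72, against 0.03 over all genes. The levels of 20 members in both Ni_3D libraries lay below all 4 controls (18.8% of all genes), and those of 1, ISG20, lay above them (19.8%). At an unadjusted p under 0.05, 17 members were lower and 1 higher in edgeR (11.3% and 13.1% of all genes). DESeq2 called 12 members, of which 11 were lower (OAS1, OAS2, OAS3, OASL, IFIT1, IFIT3, IFI6, IFI27, ISG15, MX2 and SAMD9L) and 1 higher (ISG20), against 12.6% of all genes in either direction.

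These counts changed with the libraries used, and so did the share of all genes called, 4.33% with all libraries. Without Control_3D replicate 2 no member was called by edgeR (0.951% of all genes). Without Control_3D replicate 3 or replicate 4 OAS2 alone was (0.912% and 1.52% of all genes). With any 1 library left out, the median over members lay between -1.04 and -0.57. Without Control_3D replicate 1 and Ni_3D replicate 1, the libraries with ESR1, the median was -1.09. That fit left a single Ni_3D library, and the calls of OAS1 and OAS2 were lost in it. Without Control_3D replicates 1 and 2 the count was 9, all lower (2.56% of all genes fell in that fit). Without replicates 3 and 4 it was 0 (0.813% of all genes were called). In single pairs, the median over members of Ni_3D replicate 1 against Control_3D replicate 1 was -0.16 with 28 members lower, and that of Ni_3D replicate 2 against Control_3D replicate 3 was -1.39 with 43 lower. All 8 such pairs had a median below 0. Sums over the 7 fibroblast markers lay at 575 and 1537 CPM in Ni_3D against 2036 to 4571 in Control_3D, and PDGFRB itself was called lower. COL1A1 made up most of these sums, at 529 and 1450 CPM in Ni_3D against 1911 to 4406. Sums over the 10 epithelial markers lay at 1092 and 1206 CPM against 1373 to 1972, mostly from KRT7, KRT8 and KRT18. Against that direction, CDH1 and KRT19 had their highest level of the series in Ni_3D replicate 1, at 29.0 and 38.3 CPM. In Ni_3D replicate 2 these genes stood at 0.0590 and 0.814 CPM. In Control_3D replicate 1, the other library with ESR1, they stood at 11.4 and 13.3 CPM. Sums over the 8 immune markers lay at 45.8 to 52.3 against 33.0 to 63.4. The 2 Ni_3D libraries were the deepest of the 20, at 48122350 and 88848786 reads. The part of depth, of the ESR1-positive libraries and of cell composition in the result was not tested.

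**Figure D4:**
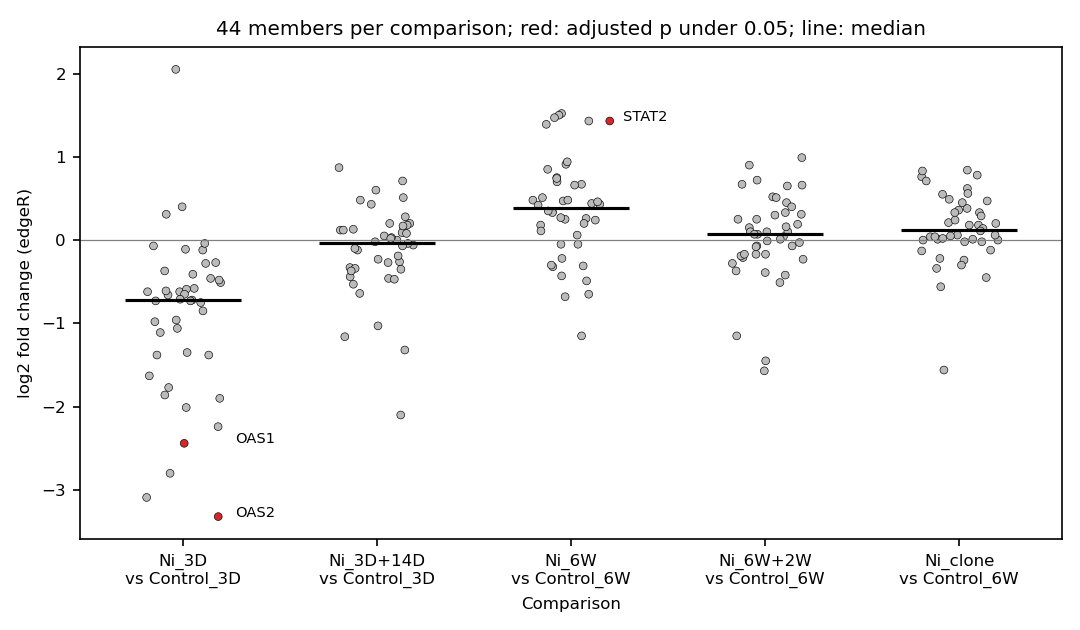
log2 fold change (edgeR) of 44 members in 5 comparisons with a control, with the median of these as a line and genes past an adjusted p of 0.05 in red. RSAD2 and CMPK2, with at most 1 read in Control_6W, are left out. In Ni_3D nearly all points lie below 0, and OAS1, OAS2 and STAT2 carry the red points.

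When cells of the 3-day exposure had a further 14 days, no member differed from Control_3D in edgeR (0.0% of all genes did). With no adjustment, 2 members had a p under 0.05, IFI27 and ISG15, both lower (1.51% of all genes were lower and 2.6% higher). The count by DESeq2 was 0 (0.107% of all genes). The median over members was -0.02. It was 0.17 without Control_3D replicate 3 and -0.17 without Control_3D replicate 1, with no member called either way. Directly against Ni_3D, 43 of 46 members had higher values in Ni_3D+14D, with a median of 0.70, and 1.23 without Ni_3D replicate 1, when again none was called. No member was called by edgeR, where 0.121% of all genes rose, 0.134% fell and 0.255% were called in all. At an unadjusted p under 0.05, 8 were higher and 1 lower (6.1% and 6.47% of all genes). The 3 members called by DESeq2 were OAS1, OAS2 and SAMD9L, all higher (2.96% of all genes were called). Both comparisons share libraries with the Ni_3D comparison, so they are not separate evidence of it.

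After 6 weeks of nickel 1 of 46 members rose against Control_6W, STAT2, the STAT protein that serves type I and type III interferon signalling, where 1.25% of all genes rose, 1.21% fell and 2.47% were called in all. DESeq2 called STAT2 and no other member (13.9% of all genes). The values of 35 members were on the higher side (51.9% of all genes), with a median of 0.42, and 5 passed an unadjusted p of 0.05 (OAS1, ISG20, STAT2, IFITM3 and IFIH1), all higher (14.5% of all genes were higher and 12.1% lower). Both Ni_6W libraries lay above both controls for 16 members (24.6% of all genes) and below them for 1, HERC6 (22.5%). Leaving out 1 library left a single library in Control_6W or Ni_6W, and calls over all genes changed widely there. Calls of members in those fits are thus no result particular to the members. Without Ni_6W replicate 2 the log2 fold changes of SAMD9, IFIT5 and IRF1 were -3.42, -1.59 and -0.98. Those of STAT2, IFITM2 and IFITM3 were 1.61, 1.27 and 1.15. The median over members was 0.18 without Control_6W replicate 1, 0.70 without Control_6W replicate 2 and 0.23 without Ni_6W replicate 2. Summed immune markers reached 117 CPM in Ni_6W replicate 1, against 42.2 in replicate 2 and 45.9 to 75.7 in Control_6W. Summed over 10 epithelial markers, Ni_6W stood at 482 and 910.0 CPM against 1438 and 1478 in Control_6W. The fibroblast collagen COL1A2 was called higher, at 44.1 and 12.4 CPM against 0.547 and 0.184, while the fibroblast sums overlapped. The part of these in the result was not tested.

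After wash-out for 2 weeks no member passed the test in Ni_6W+2W against Control_6W (0.0% of all genes). STAT2 and RSAD2 were higher at an unadjusted p under 0.05 (6.87% of all genes were higher and 6.24% lower), and the count by DESeq2 was 0 (2.2% of all genes). The median was 0.09. It was -0.41 without Ni_6W+2W replicate 2, 0.35 without its replicate 1, -0.13 without Control_6W replicate 1 and 0.40 without Control_6W replicate 2. Both Ni_6W+2W libraries lay above both controls for 3 members (IFIH1, STAT2 and SAMD9L; 23.5% of all genes) and below them for 5 (20.8%). Against Ni_6W directly none was called either in edgeR (0.0% of all genes), and the median was -0.30. It was -0.91 without Ni_6W+2W replicate 2, 0.04 without its replicate 1 and -0.04 without Ni_6W replicate 2. Lower at an unadjusted p under 0.05 were 3 members, IRF7, IFITM2 and IFITM3 (3.97% of all genes were lower and 2.61% higher), and DESeq2 gave 0 calls (0.0469% of all genes). Without Ni_6W replicate 2 edgeR called 3 members there, SAMD9 as higher and IFITM2 and IFITM3 as lower after wash-out, with 7.4% of all genes called.

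In the clones no member was called by edgeR against Control_6W, where 2.89% of all genes rose, 2.38% fell and 5.26% were called in all. The median over members was 0.16, with 0.02 without Control_6W replicate 1 and 0.42 without replicate 2. At an unadjusted p under 0.05 STAT2 and SAMD9L were higher (13.3% of all genes were higher and 11.9% lower). SAMD9L and CMPK2 were called as higher by DESeq2 (13.9% of all genes). All 6 clones lay above both controls for IFIH1 and SAMD9L (11.5% of all genes) and below both for no member (12.1%). Against Ni_6W+2W none was called in edgeR, where 0.014% of all genes rose, 0.014% fell and 0.028% were called in all, and the median was 0.10, with 0.53 without Ni_6W+2W replicate 2 and -0.22 without its replicate 1. STAT2 was lower at an unadjusted p under 0.05 (3.24% of all genes were lower and 3.36% higher), and DESeq2 made 0 calls (0.427% of all genes). Between the 2 control groups no member was called by edgeR (0.0% of all genes) or by DESeq2 (0.328%). ISG15 and CMPK2 were lower in Control_6W at an unadjusted p under 0.05 (4.46% of all genes were lower and 3.85% higher). The median was -0.14, with 0.13 without Control_3D replicate 3, 0.11 without Control_6W replicate 1, -0.30 without Control_6W replicate 2 and -0.24 without Control_3D replicate 1. No member was called in these either.

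The difference between the long and the short response was tested directly, as the change in Ni_6W minus that in Ni_3D, each against its control. No member passed in edgeR (0.0% of all genes), although 43 of 46 differences were above 0 with a median of 1.20 against 0.04 over all genes. At an unadjusted p under 0.05, 17 members were higher in the long response (4.92% of all genes, with 6.0% lower), and DESeq2 called 3, OAS1, OAS2 and STAT2 (1.27% of all genes). Without Ni_6W replicate 2 edgeR called IFITM2 and IFITM3 as higher (0.65% of all genes rose and 1.29% fell), and the median was 0.85. Without the 2 libraries with ESR1 none was called and the median was 1.65.

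Among the sensors of viral RNA, IFIH1 (MDA5) and DDX58 (RIG-I) detect double-stranded RNA in the cytoplasm, and DDX60 is a related helicase. DDX60 measured 6.77, 10.98, 12.6 and 9.87 CPM in Control_3D, 9.78 and 3.16 in Ni_3D and 11.5 and 8.33 in Ni_3D+14D. For DDX60 the long series gave 8.69 and 13.6 in Control_6W, 16.2 and 19.2 in Ni_6W, 7.85 and 17.003 after wash-out and 8.10 to 22.2 in the clones (median 11.1). Ni_3D replicate 1 lay inside the range of its controls and replicate 2 below it, while clone 1 stood above the other clones. IFIH1 had its levels in Ni_6W (15.2 and 18.4 CPM) and in the clones (10.54 to 20.7, median 11.9) above both Control_6W libraries (9.02 and 8.87). Its log2 fold change in Ni_6W was 0.91 ± 0.34 (SE), which missed the threshold in edgeR (Benjamini-Hochberg adjusted p = 0.119). DDX58 ranged from 6.83 CPM in Ni_3D replicate 2 to 29.2 in Ni_6W replicate 2.

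Of the transcription factors, STAT2 and IRF9 belong to the complex that reads the ISRE, IRF7 amplifies type I interferon expression and IRF1 is itself induced by interferon. STAT2 (chr12:56735382-56754037, hg19, as in the deposited files) measured 90.2 and 65.3 CPM in Control_6W and 239.7 and 180.2 in Ni_6W. After wash-out STAT2 stood at 122 and 168 CPM in Ni_6W+2W, and 89.2 to 135 in the clones (median 104). The Ni_6W and Ni_6W+2W libraries all lay above both controls, and the lowest clone lay within the controls' range. In Ni_6W STAT2 rose by 1.43 ± 0.34 (SE) on the log2 scale (edgeR, Benjamini-Hochberg adjusted p = 0.0497). That call was kept without Ni_6W replicate 2 and lost without Ni_6W replicate 1 or either library of Control_6W. Such fits left a single library in Control_6W or Ni_6W, which limits the test. Over all alternatives the fold change lay between 1.20 and 1.68. After wash-out it was 0.90 ± 0.33 (edgeR adjusted p = 0.286), and in the clones 0.49 ± 0.18 (0.126). In the short series STAT2 measured 89.2, 79.6, 101 and 90.04 CPM in Control_3D, 113 and 50.2 in Ni_3D and 147 and 108 in Ni_3D+14D. Thus Ni_3D libraries lay on either side of their controls, whereas both Ni_3D+14D libraries lay above them.

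IRF7 was among the 3 members with values above control in Ni_3D, with ISG20 and IRF1: 71.7 and 67.04 CPM against 36.7, 42.7, 75.1 and 57.7. The IRF7 levels in Ni_3D lay inside the range of the controls. IRF1 ranged from 41.0 CPM in Ni_6W replicate 1 to 95.0 in clone 2. IRF9 was lower in both Ni_3D libraries (30.7 and 18.7 CPM) than in any control (36.9, 32.4, 40.9 and 31.7), with a log2 fold change of -0.51 ± 0.25 that did not pass (edgeR adjusted p = 0.223).

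**Figure D5:**
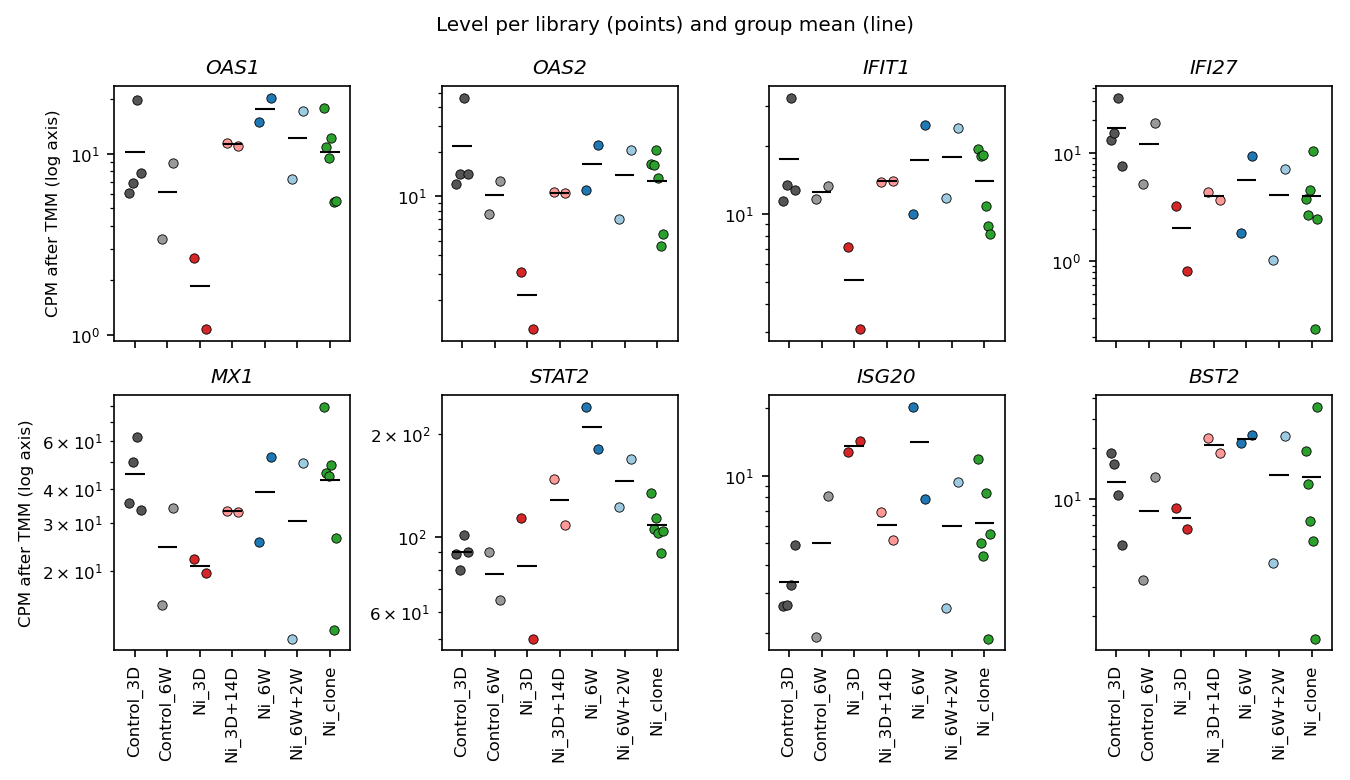
CPM of 8 members in each library (points, log axis) by group, with the group mean as a line. OAS1, OAS2, IFIT1 and MX1 are lowest on average in Ni_3D, ISG20 is high there, STAT2 is highest in Ni_6W, and BST2 spreads from 1.47 to 35.2 among the clones.

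The OAS family gave both called decreases after 3 days. OAS2 (chr12:113416274-113449528, hg19) measured 12.1, 14.1, 46.4 and 14.2 CPM in Control_3D, 3.06 and 1.26 in Ni_3D and 10.7 and 10.51 in Ni_3D+14D. Both Ni_3D libraries lay below every other library of the series, and Control_3D replicate 3 lay above every other. OAS2 fell by 3.32 ± 0.71 (SE) on the log2 scale in Ni_3D (edgeR, Benjamini-Hochberg adjusted p = 0.0289). Without Control_3D replicate 3 its value was -2.65, still past the threshold in edgeR (adjusted p = 0.0474). The call was lost in edgeR without Control_3D replicate 2 (adjusted p = 0.0519), Ni_3D replicate 1 (0.0788) or Ni_3D replicate 2 (0.174). In the long series OAS2 stood at 7.60 and 12.7 CPM in Control_6W, 11.01 and 22.2 in Ni_6W, 7.03 and 20.7 after wash-out and 4.64 to 20.4 in the clones (median 14.7). There the groups overlapped.

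OAS1 (chr12:113344739-113357712, hg19), its neighbour on chromosome 12, measured 6.08, 6.91, 19.8 and 7.88 CPM in Control_3D, 2.66 and 1.07 in Ni_3D and 11.4 and 11.1 in Ni_3D+14D. Again the Ni_3D libraries were the 2 lowest of the series. OAS1 fell by 2.44 ± 0.62 (SE) on the log2 scale (edgeR, Benjamini-Hochberg adjusted p = 0.0463). In edgeR the call was lost without Control_3D replicate 2 (adjusted p = 0.0734), replicate 3 (0.0996) or replicate 4 (0.0685), and without Ni_3D replicate 1 (0.0973) or replicate 2 (0.236). For OAS1 the long series gave 3.39 and 8.93 CPM in Control_6W, 14.96 and 20.4 in Ni_6W, 7.27 and 17.1 after wash-out and 5.40 to 17.998 in the clones (median 10.1). Both Ni_6W libraries lay above both controls, with a log2 fold change of 1.52 ± 0.65 that did not pass (edgeR adjusted p = 0.16). For OAS1 the long response minus the short one was 3.96 ± 0.90 (edgeR adjusted p = 0.23; DESeq2 adjusted p = 0.00109).

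OAS3, the synthetase with the highest level, ranged from 140.2 CPM in Ni_3D replicate 2 to 351 in Control_3D replicate 3, with a log2 fold change of -0.73 ± 0.22 in Ni_3D (edgeR adjusted p = 0.0717). OASL lacks synthetase activity and enhances RIG-I signalling. OASL measured 4.49, 7.01, 11.4 and 7.88 CPM in Control_3D, 2.52 and 0.708 in Ni_3D and 7.36 and 7.91 in Ni_3D+14D. For OASL the long series gave 2.30 and 10.4 in Control_6W, 19.3 and 13.7 in Ni_6W, 0.943 and 15.1 after wash-out and 0.881 to 24.5 in the clones (median 7.47). The wash-out replicates of OASL lay on either side of both Control_6W libraries. Reads of the OAS genes, which are related in sequence, may have been shared between copies.

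The IFIT proteins bind foreign RNA lacking the marks of host messages, and IFIT1, IFIT2, IFIT3 and IFIT5 lie close together on chromosome 10. IFIT1 (chr10:91152303-91166244, hg19) measured 11.4, 13.4, 32.6 and 12.7 CPM in Control_3D, 7.12 and 3.09 in Ni_3D and 13.9 and 13.9 in Ni_3D+14D. For IFIT1 the long series gave 11.6 and 13.3 in Control_6W, 9.96 and 24.7 in Ni_6W, 11.8 and 23.95 after wash-out and 8.13 to 19.3 in the clones (median 14.5). Both Ni_3D libraries lay below all controls, and the log2 fold change of -1.77 ± 0.54 missed the threshold (edgeR adjusted p = 0.0733). IFIT2 measured 4.29, 6.17, 13.1 and 9.05 CPM in Control_3D, 5.49 and 2.25 in Ni_3D and 8.02 and 9.25 in Ni_3D+14D. For IFIT2 the long series gave 4.26 and 12.97 in Control_6W, 6.45 and 17.9 in Ni_6W, 4.66 and 14.98 after wash-out and 5.05 to 16.9 in the clones (median 11.5). In IFIT2 the Ni_3D libraries overlapped the controls, and replicate 2 was above replicate 1 in Control_6W, Ni_6W and Ni_6W+2W.

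IFIT3 measured 12.4, 16.7, 37.6 and 23.04 CPM in Control_3D, 10.3 and 6.71 in Ni_3D and 19.9 and 25.7 in Ni_3D+14D. For IFIT3 the long series gave 17.9 and 43.9 in Control_6W, 15.8 and 33.9 in Ni_6W, 14.1 and 29.1 after wash-out and 14.8 to 33.8 in the clones (median 25.1). Its Ni_3D libraries lay below all controls (log2 fold change -1.38 ± 0.52, edgeR adjusted p = 0.128), and Control_6W replicate 2 was the highest library of the series. IFIT5 ranged from 7.81 CPM in Ni_6W replicate 1 to 26.7 in Control_3D replicate 3.

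MX1 and MX2 are dynamin-like proteins that trap viral components. MX1 measured 35.5, 50.2, 62.1 and 33.5 CPM in Control_3D, 22.04 and 19.6 in Ni_3D and 33.2 and 32.8 in Ni_3D+14D. For MX1 the long series gave 15.04 and 34.02 in Control_6W, 25.6 and 52.05 in Ni_6W, 11.3 and 49.5 after wash-out and 12.2 to 79.7 in the clones (median 44.97). Clone 1 held the highest MX1 level of the series, and clone 5 nearly the lowest. MX2 measured 14.7, 19.9, 36.8 and 10.9 CPM in Control_3D, 7.65 and 3.68 in Ni_3D and 16.3 and 13.4 in Ni_3D+14D. For MX2 the long series gave 4.98 and 21.2 in Control_6W, 19.04 and 28.01 in Ni_6W, 3.96 and 23.6 after wash-out and 3.41 to 25.6 in the clones (median 16.1). Both MX genes lay below all controls in Ni_3D without passing the test (log2 fold changes -1.11 ± 0.52 and -1.86 ± 0.75, edgeR adjusted p = 0.21 and 0.157).

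RSAD2 (viperin) and its neighbour CMPK2 make antiviral nucleotides, and both were near the limit of detection. RSAD2 had from 0 to 52 reads per library, with the most in Ni_6W+2W replicate 2. CMPK2 had no read in either Control_6W library. Set against a floor of 3 reads over that group, CMPK2 was at least 2.37-fold higher in Ni_6W (7 reads), 3.18-fold in Ni_6W+2W (16 reads) and 10.7-fold in the clones (105 reads). Clones 1 and 2 had 48 and 49 of these reads, and clones 5 and 6 had none. In Control_3D, CMPK2 had 31, 18, 0 and 2 reads (0.688, 0.882, 0 and 0.235 CPM), so it also varied within a control group.

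In the ISG15 system, ISG15 is attached to proteins by the conjugating enzyme UBE2L6 and the ligase HERC5 and removed by USP18, and HERC6 is a relative of HERC5. ISG15 measured 103, 110.1, 210.4 and 109 CPM in Control_3D and 62.02 and 71.2 in Ni_3D. Both Ni_3D libraries lay below all controls, and the log2 fold change was -0.98 ± 0.30 (edgeR adjusted p = 0.0711). HERC5 reached 34.6 CPM in clone 1 against 16.2 to 19.1 in the other clones. UBE2L6 ranged from 45.6 to 128 CPM, USP18 from 6.63 to 18.5, and HERC6 from 5.24 to 13.8. For USP18 and HERC6 the highest library was Control_3D replicate 3.

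ISG20, an exonuclease that degrades viral RNA, ran against most members. It measured 2.62, 2.65, 3.25 and 4.94 CPM in Control_3D, 12.8 and 14.3 in Ni_3D and 6.92 and 5.18 in Ni_3D+14D. All 4 exposed libraries of the short series lay above all controls. The log2 fold change in Ni_3D was 2.05 ± 0.56, just short of the threshold (edgeR adjusted p = 0.0568; DESeq2 adjusted p = 0.00884). For ISG20 the long series gave 1.91 and 8.14 in Control_6W, 20.3 and 7.86 in Ni_6W, 2.59 and 9.38 after wash-out and 1.88 to 11.9 in the clones (median 5.27). In each of these groups ISG20 overlapped Control_6W, with the highest level of the series in Ni_6W replicate 1.

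SAMD9 and SAMD9L, neighbours on chromosome 7 that restrict poxviruses and growth, varied by library in another order. SAMD9 measured 14.99, 29.2, 45.7 and 29.6 CPM in Control_3D, 15.98 and 6.75 in Ni_3D and 29.7 and 28.2 in Ni_3D+14D. For SAMD9 the long series gave 29.5 and 38.6 in Control_6W, 3.20 and 48.2 in Ni_6W, 30.7 and 49.9 after wash-out and 32.996 to 62.5 in the clones (median 43.96). Ni_6W replicate 1 held the lowest SAMD9 level of the series, and clone 3 the highest. SAMD9L measured 7.93, 12.3, 27.9 and 15.2 CPM in Control_3D, 5.90 and 2.49 in Ni_3D and 22.6 and 19.9 in Ni_3D+14D. For SAMD9L the long series gave 15.8 and 15.3 in Control_6W, 5.75 and 31.7 in Ni_6W, 22.7 and 26.4 after wash-out and 19.1 to 37.1 in the clones (median 26.2). All 6 clones and both Ni_6W+2W libraries lay above both Control_6W libraries. In the clones the log2 fold change of SAMD9L was 0.78 ± 0.26, which missed the threshold in edgeR (adjusted p = 0.096) and passed it in DESeq2 (0.0323). In Ni_3D it was -1.90 ± 0.64 (edgeR adjusted p = 0.0957). Clone 5, lowest for 9 other members, had the highest SAMD9L level of the series.

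PARP9 and its partner DTX3L, which take part in interferon signalling, and PARP14 varied less. PARP9 ranged from 14.9 to 47.3 CPM, DTX3L from 36.6 to 88.6 and PARP14 from 55.0 to 126. PARP9 and DTX3L had their highest level in clone 1 and their lowest in Ni_3D replicate 2. The 2 genes overlap on opposite strands on chromosome 3, and the strand used for counting is not given, so reads in the overlap cannot be assigned with certainty.

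The membrane proteins IFITM1, IFITM2 and IFITM3 block fusion of virus with the cell, and BST2 (tetherin) holds budding virus at the surface. IFITM1 measured 24.6, 28.5, 37.5 and 28.2 CPM in Control_3D, 28.4 and 10.9 in Ni_3D and 37.2 and 29.6 in Ni_3D+14D. For IFITM1 the long series gave 13.01 and 38.5 in Control_6W, 81.8 and 59.8 in Ni_6W, 11.7 and 61.8 after wash-out and 7.40 to 44.4 in the clones (median 25.6). Both Ni_6W libraries lay above both controls, and the log2 fold change was 1.47 ± 0.68 (edgeR adjusted p = 0.189). IFITM2 and IFITM3 shared the high value of Ni_6W replicate 1, at 177 and 568 CPM against 66.4 and 273 in replicate 2. Neither passed the test in Ni_6W, and the IFITM genes are nearly identical in sequence, so reads may have been shared between them.

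BST2 measured 18.7, 16.02, 10.47 and 5.29 CPM in Control_3D, 8.79 and 6.58 in Ni_3D and 23.04 and 18.8 in Ni_3D+14D. For BST2 the long series gave 3.28 and 13.5 in Control_6W, 21.3 and 23.9 in Ni_6W, 4.17 and 23.5 after wash-out and 1.47 to 35.2 in the clones (median 9.79). Clones 5 and 6 held the lowest and the highest level of the whole series. Unlike most members, BST2 was lower in Control_3D replicate 3 than in replicates 1 and 2.

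Of the remaining effectors, IFI27, a small mitochondrial protein, had the widest range on the log2(CPM + 0.5) scale. IFI27 measured 13.1, 15.5, 32.5 and 7.64 CPM in Control_3D, 3.22 and 0.814 in Ni_3D and 4.38 and 3.65 in Ni_3D+14D. For IFI27 the long series gave 5.14 and 19.1 in Control_6W, 1.84 and 9.37 in Ni_6W, 1.03 and 7.19 after wash-out and 0.235 to 10.4 in the clones (median 3.23). All 4 libraries of Ni_3D and Ni_3D+14D lay below all 4 controls. The log2 fold changes were -3.09 ± 1.01 and -2.10 ± 0.96, and neither passed (edgeR adjusted p = 0.093 and 0.979). Libraries of the long series overlapped with their controls.

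IFI44 is a cytoplasmic protein found with microtubules, and it measured 1.15, 2.65, 4.64 and 1.9984 CPM in Control_3D, 1.13 and 0.165 in Ni_3D and 1.05 and 1.27 in Ni_3D+14D. For IFI44 the long series gave 1.37 and 7.83 in Control_6W, 2.11 and 3.800 in Ni_6W, 1.46 and 2.66 after wash-out and 0.294 to 7.64 in the clones (median 1.97). The highest level was that of Control_6W replicate 2 and the lowest that of Ni_3D replicate 2, with 14 reads. IFI6 ranged from 50.1 CPM in Ni_3D replicate 2 to 250.1 in Control_3D replicate 3. EIF2AK2, the kinase PKR that halts translation on viral RNA, stayed between 33.9 and 59.4 CPM. LGALS3BP varied least, between 576 and 895 CPM. With all libraries of each fit, IFI35, XAF1, TRIM22, EPSTI1 and PLSCR1 were called in no comparison by edgeR or DESeq2. IFI35 was lower in Ni_3D without Control_3D replicates 1 and 2 (edgeR adjusted p = 0.0168). The controls left out stood at 47.6 and 41.8 CPM and those kept at 97.7 and 92.9, against 47.6 and 28.9 in Ni_3D. That call thus depends on which controls are used.

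Members with an ISRE core match in the RefSeq window did not stand apart from those without it in the size of the Ni_3D difference. The median log2 fold change was -0.73 over the 25 with a match, -0.65 over the 13 without, and -0.77 over the 8 with no window. In Ni_6W the medians were 0.26, 0.42 and 0.59 in that order. These are descriptions with no test.

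Upstream of the members, the ligands were nearly silent: among IFNA1, IFNB1, IFNE, IFNG, IFNK, IFNL1, IFNL2 and IFNL3 the most reads in any library were 12, for IFNE, and IFNG had none. The receptors were present in all libraries, with medians of 101 CPM for IFNAR1, 49.7 for IFNAR2 and 6.90 for IFNLR1, the receptor chain for type III interferon. Of 38 genes in a list of ligands, receptors, kinases, sensors and inhibitors, 29 were tested in Ni_3D, 1 rose and none fell, where 2.83% of all genes rose and 1.51% fell. The riser was IRF5, an interferon regulatory factor downstream of Toll-like receptors. IRF5 measured 17.8 and 28.0 CPM in Ni_3D against 5.52 to 7.85 in Control_3D (log2 fold change 1.76 ± 0.26, edgeR adjusted p = 0.00522). In the clones 28 were tested, and SOCS1, an inhibitor of JAK kinases, rose by 1.63 ± 0.30 (edgeR adjusted p = 0.0217), while none fell (2.89% of all genes rose and 2.38% fell). SOCS1 measured 4.72 to 7.47 CPM in the clones against 1.59 and 2.30 in Control_6W.

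Among 42 further interferon targets, 40 were tested. The 2 that rose in Ni_6W and the 3 in the clones stand beside 1.25% and 2.89% of all genes. PML and SP100, which form nuclear bodies, rose in Ni_6W by 1.05 ± 0.25 and 0.76 ± 0.18 (edgeR adjusted p = 0.0497 and 0.0499). In the clones they rose by 1.12 ± 0.21 and 0.59 ± 0.12 (edgeR adjusted p = 0.0229 and 0.0258), and NMI, a STAT-interacting protein, by 0.86 ± 0.18 (0.0303). PML stood at 149 to 192 CPM in the clones and 152 and 188 in Ni_6W, against 106 and 58.6 in Control_6W replicates 1 and 2. The value of replicate 2 was the lowest PML level of the 20 libraries, and Control_3D stood at 101 to 120, so the PML calls may rest on it. Both Ni_6W calls lay close to the threshold of 0.05. None of the 40 was called in the other comparisons, and none fell. In Ni_3D their median was -0.13, against -0.72 for the members. Ni_6W and the clones share the Control_6W libraries, so these calls, and that of SOCS1, all rest on the same 2 controls.

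The authors' deposited table for the 3-day exposure held values that differ from the library means above. Its control column equals the mean RPKM of Control_3D replicates 3 and 4 within 1% for 46 of 46 members, and the mean of all 4 for 0. For OAS2 the authors' deposited table gives 7.81 RPKM for the control, while the mean of all 4 libraries is 5.60. For Ni_3D the authors' deposited table gives 0.482 RPKM, while the mean of the 2 libraries is 0.630. The Ni_3D value of the authors' deposited table is within 1% of that mean for 0 of 46 members, and it lies above both libraries for 2 and below both for 14. For Ni_3D+14D, Control_6W, Ni_6W and Ni_6W+2W the authors' deposited table matches the mean of the libraries for 46 of 46 members. The control column beside Ni_3D+14D again equals the mean of Control_3D replicates 3 and 4 for 46 of 46 members, and the mean of all 4 for 0. Ratios for these genes in the authors' deposited tables of Ni_3D and of Ni_3D+14D therefore include the control library in which the members were highest.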

How the data were processed

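RNA sequencing libraries of BEAS-2B cells were compared over 46 interferon-stimulated genes. The members and lists were chosen with earlier results of these data known. Raw read counts per RefSeq gene and RPKM values per library were taken as deposited by the authors, with gene positions on hg19 per the file headers. STAR 2.4, DESeq and DESeq2 appear, with no role, in the processing notes of the submitters. Which program counted the reads, and on which strand, is not given in the sources used here. In 2 libraries 28 symbols had been altered by a spreadsheet and were restored through their RefSeq identifiers.

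Counts were scaled by TMM and tested with the quasi-likelihood F test of edgeR 4.0.16 (limma 3.58.1, R 4.3.3) over all genes that passed filterByExpr (minimum count 10, minimum total 15). P-values were adjusted by Benjamini-Hochberg over all genes tested, with a threshold of 0.05. One fit held the 14 libraries outside the clones, and each clone comparison had a fit of 8 libraries. The biological coefficient of variation was 29.7% in the first fit and 24.7% and 24.8% in the clone fits. Levels are CPM with TMM factors over 20 libraries, and RPKM served to compare levels between genes. The test was checked on simulated counts. DESeq2 1.42.0, RLE size factors, no filter, a replicate block, a fit of all 20 libraries and leaving out libraries were the alternatives.

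Any member could be named. Values in every library are given for members called in a comparison and for the 16 with the widest range of log2(CPM + 0.5) among those reaching 1 CPM, with the lowest, median and highest for the clones. From the 2 further lists, called genes are named. Totals per library ran from 8609243 to 88848786 reads, so low genes are measured with different precision, and no 2 libraries agreed within counting error.

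Some items are not reported here.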

Additional observations from a re-analysis of the deposited data

Results flagged for a closer look

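In 10 of 92 checks the highest library of a group stood apart from the rest by Dixon's 95% criterion (0.829 of the range for 4 samples and 0.625 for 6). Chance flags about 1 in 20 groups, but the members move together by library, so the checks are not independent and their number says nothing against that share. Replicate 3 of Control_3D had also been singled out before these checks.

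By this criterion Control_3D replicate 3 stood apart above the other 3 controls for 7 members. OAS1 was at 19.83 CPM there, against 6.08 to 7.88 in the others. OAS2 was at 46.38 CPM against 12.1 to 14.2, and OAS3 at 350.6 CPM against 219.9 to 223.8. IFIT1 was at 32.58 CPM against 11.4 to 13.4, and IFIH1, the sensor MDA5, at 15.5 CPM against 8.59 to 9.41. ISG15 was at 210.4 CPM against 103.0 to 110.1. XAF1, a pro-apoptotic protein, was at 14.76 CPM against 4.51 to 6.23.

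By the same criterion clone 1 stood apart above the other 5 clones for 3 members. The RNA sensor DDX58 was at 27.76 CPM against 13.5 to 18.8, its relative DDX60 at 22.23 CPM against 8.10 to 11.9, and the ISG15 ligase HERC5 at 34.62 CPM against 16.2 to 19.1.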

How the results depend on the processing

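Shares of all genes called stand in brackets. The number of members called in Ni_3D against Control_3D was 2 (4.33%). It was 12 with DESeq2 (12.6%), 1 with no low-count filter (2.69%) and 7 in a fit of all 20 libraries (11.3%). Without Control_3D replicates 1 and 2 it was 9 (7.95%), and without replicates 3 and 4 it was 0 (0.813%). With 1 control left out it lay between 0 and 2 (0.912% to 4.41%). With the replicate number as a block it was 0 (0.616%), with OAS1 at -1.73 and OAS2 at -2.52. In Ni_3D+14D against Ni_3D it was 0 (0.255%), and 3 with DESeq2 (2.96%). In Ni_6W against Control_6W it was 1 (2.47%), and in Ni_6W+2W against Ni_6W it was 0 (0.0%). Leaving out 1 library there left a single library in a group, so those counts are not compared. The same holds without replicate 2 of Ni_6W and Ni_6W+2W, an alternative chosen after seeing the data. In the difference of responses it was 0 (0.0%), and 3 with DESeq2 (1.27%). In the clones against Control_6W it was 0 (5.26%), and 2 with DESeq2 (13.9%). Leaving out clones 1 and 5, also chosen after seeing the data, changed no count of calls. The cause of these changes was not tested, apart from fewer samples entering when libraries are left out.

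The groups share replicate numbers 1 and 2 only, which the labels tie to no animal, batch or day. With only 2 shared numbers they were not taken to pair the libraries. Correlations of same-numbered deviations were 0.132 to 0.263 in 6 of 7 comparisons and -0.041 in the other. The block changed no other count of calls. OAS1 and OAS2 in Ni_3D and STAT2 in Ni_6W, the members called by edgeR with all libraries, kept the sign of their fold change under every alternative run. Other members could change side with the library left out. SAMD9 stood at 3.20 and 48.2 CPM in Ni_6W replicates 1 and 2, against 29.5 and 38.6 in Control_6W. The medians over members changed sign with 1 library left out in 5 of the 10 comparisons, those of Ni_3D+14D with Control_3D, of Ni_6W+2W with Control_6W and with Ni_6W, of the clones with Ni_6W+2W and of the 2 control groups. Groups of 2 libraries limit the tests, and genes under about 1 CPM limit fold changes.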
